A study of Mus musculus with 2 samples.

Results

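Hdac3 and the genes for 4 subunits of its corepressor complex, Ncor1, Tbl1x, Tbl1xr1 and Gps2, were followed in RNA-seq of mouse optic nerve. The members were taken by gene symbol, and all 5 were found, each with 1 entry, among 23950 symbols measured. The study compared 1 library from Hdac3 f/+; Olig1-cre mice (control) with 1 library from Hdac3 f/f; Olig1-cre mice (Hdac3 cKO), both of mixed strain and at postnatal day 12. Its title names a switch of fate between oligodendrocytes and astrocytes and the interaction of HDAC3 with the acetyltransferase p300. Both groups carry the Cre recombinase under Olig1, a gene of the oligodendrocyte lineage, and the control group carries 1 floxed Hdac3 allele, so it is not a wild-type group. Cells that never express Olig1 keep their Hdac3 in both groups. The labels do not say how many animals each library pools.

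HDAC3 is a class I histone deacetylase that has little activity on its own. It gains activity when it binds the deacetylase-activating domain of NCoR (gene Ncor1), a large scaffold protein that transcription factors bind. TBL1X and its close relative TBLR1 (gene Tbl1xr1) are WD40-repeat proteins that bind histones and take part in the exchange of corepressors for coactivators, and GPS2 is a small protein that ties them to the scaffold. In glia, these complexes act through nuclear receptors, such as those for thyroid hormone and retinoic acid, that set the timing of oligodendrocyte differentiation.

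None of the 5 members differed 2-fold between the libraries. Hdac3, Ncor1, Tbl1xr1 and Gps2 lay close together in control and cKO, with deposited intervals that overlapped. Tbl1x was the exception, at 1.49 times the control FPKM in the cKO-labelled library with intervals that did not overlap.

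FPKM scales fragments by transcript length and by library size, so levels of different genes can be set side by side. Testing needed an OK status in control and cKO alike and 1 FPKM or more in 1 of them, which held for 14154 genes and all 5 members. The difference is log2 of cKO FPKM plus 1 over control FPKM plus 1, which understates the change of low genes. A gene was called when it differed at least 2-fold and the authors' intervals lay apart. Neither group has a replicate, so no p-value is given, and each difference compares these libraries and not the genotypes. The intervals hold no variation between animals, and 15.9% of genes at 1 FPKM or more in control and 33.0% in cKO lie outside their own interval. Depth in reads is unknown.

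The catalytic subunit came first in both libraries. Hdac3 (mm9, chromosome 18, 38096625 to 38114642) was at 36.4 FPKM in control, with an interval of 31.4 to 35.6, and at 38.0 FPKM in cKO, with an interval of 33.4 to 36.0. Each value lies above its own interval, and the intervals overlap. The log2 difference was 0.06, and 10.9% of tested genes had a smaller one in absolute size. A gene-level FPKM sums reads over all exons and all cells of the nerve, so a transcript that lacks only the floxed exons still counts and the value does not check the genotype. All directions below therefore refer to the libraries as labelled. The sign of the Hdac3 difference turned with the scaling, to -0.01 with equal upper quartiles, -0.06 after centring on the median and -0.27 with equal sums of FPKM, where the intervals no longer overlapped.

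Markers of several cell types differed between the libraries. Over all tested genes, 4.51% were called lower and 4.73% higher. The 9 oligodendrocyte markers (Mbp, Mog, Mag, Mobp, Cnp, Cldn11, Myrf, Ugt8a, Opalin) were all called lower, and their summed FPKM was 22833 in control and 3222 in cKO. Of 7 genes listed for oligodendrocyte precursors, 5 were called lower (summed FPKM 676 and 174). The largest values were those of Olig1 (273 and 56.4 FPKM), Gpr17 (215 and 37.2) and Olig2 (92.2 and 17.8), which mark the lineage and not precursors alone. The genes of this list that were not called were Cspg4, at 9.93 and 6.93 FPKM, and Pdgfra, higher at 35.4 and 38.8 FPKM, both with separate intervals. Of 10 astrocyte markers, 2 were called higher and 0 lower (1531 and 2532), or 1 higher with equal sums of FPKM. With separate intervals, 9 were higher and 1 was lower, against 38.4% and 22.5% of all tested genes. The lower one was Aqp4, at 181 and 153 FPKM. Of 6 meningeal fibroblast markers 5 were called higher (1726 and 4045), or 2 with equal sums of FPKM. Summed FPKM was 230 and 361 for 7 microglia markers, and 95.0 and 129 without C1qa and C1qb, with Cx3cr1 at 16.2 FPKM in both libraries and P2ry12 at 14.3 and 12.4. It was 128 and 171 for 6 endothelial markers. For 6 neuron markers it was 35.5 and 49.2, but 23.9 and 19.7 without Nefl, which was called higher (11.6 and 29.5 FPKM) except with equal sums of FPKM. Tubb3 was lower, at 12.7 and 6.24 FPKM with separate intervals. The 5 photoreceptor markers summed to under 1 FPKM in each library (0.439 and 0.467), with Prph2 listed at 0 in control. In whole nerve, fewer cells of a type and less RNA per cell cannot be told apart, and the part of this change in cell markers in the values of the complex was not tested.

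The scaffold gene Ncor1 (chromosome 11, 62129928 to 62270834) was at 22.8 FPKM in control (interval 21.8 to 23.9) and 21.2 FPKM in cKO (interval 21.0 to 22.0). The cKO value lies just below the control interval, the intervals overlap, and the log2 difference was -0.10. It ran between -0.42 and -0.08 over the pseudocounts and scalings, and the intervals did not overlap under the 3 rescalings. All 3 rescalings lowered cKO values relative to control, and a pseudocount cannot change a sign. None of these settings could therefore have raised the Ncor1 difference above 0. Ncor1 overlaps the neighbouring gene Ttc19 by 16 bases at 1 end of its locus, and Ttc19 was at 6.76 FPKM in control against 6.48 in cKO.

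**Figure D1:**
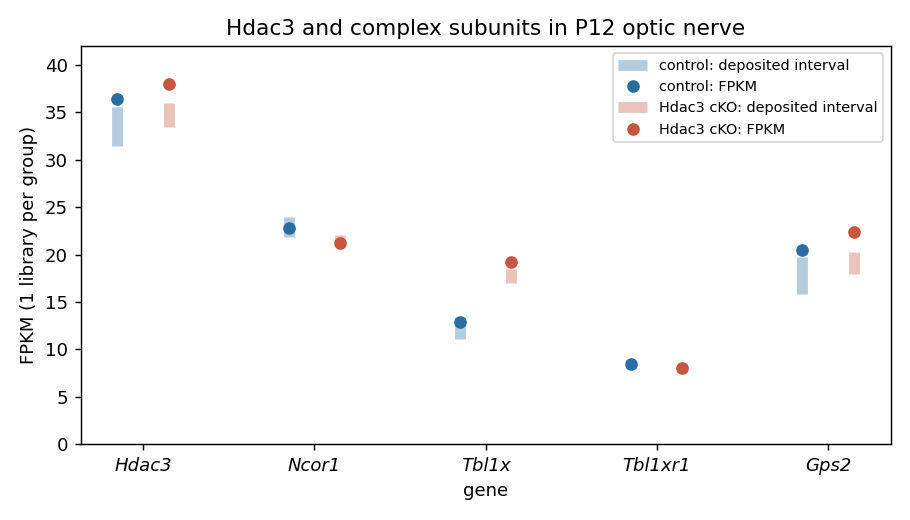
FPKM (vertical axis) of Hdac3 and 4 complex subunits in the control library (blue) and the Hdac3 cKO library (red). Points are the deposited FPKM and bars the deposited interval, which some points lie outside; Tbl1x is higher in cKO (19.2 against 12.9), and the bars of the other genes overlap.

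The WD40 subunits parted from each other. Tbl1x (chromosome X, 74756566 to 74905604) was at 12.9 FPKM in control (interval 11.1 to 13.5) and 19.2 FPKM in cKO, above its own interval of 17.0 to 18.5. The intervals did not overlap, and the log2 difference was 0.54. With the sign kept, 80.4% of tested genes had a lower difference, and 70.0% had a smaller one in absolute size. Tbl1xr1 (chromosome 3, 21975574 to 22115516) was at 8.43 FPKM in control (interval 7.90 to 8.93) and 8.03 FPKM in cKO (interval 7.66 to 8.25), with a log2 difference of -0.06. The intervals of Tbl1xr1 overlapped on the deposited scale. They did not overlap with equal upper quartiles (log2 -0.13), after centring on the median (-0.18) or with equal sums of FPKM (-0.36).

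Intervals that lie apart are common in these libraries. They were apart for 60.9% of tested genes at any size, with 38.4% higher and 22.5% lower in cKO, against 1 of 5 members (Tbl1x, higher). By the full rule, 9.23% of tested genes were called, 4.51% lower and 4.73% higher, against 0 of 5 members. Separate intervals, as for Tbl1x, are therefore the usual case for a tested gene. The log2 difference of Tbl1x ran from 0.22 to 0.57 over the pseudocounts and scalings. Its intervals, which no pseudocount alters, stayed apart under each rescaling. With equal sums of FPKM they were only just apart, by 0.0018 on the log2 scale.

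Within a library, Tbl1x was at 1.53 times Tbl1xr1 in control and 2.39 times in cKO. Interval bounds give 1.24 to 1.70 and 2.06 to 2.42, which do not overlap, and a ratio within a library does not depend on how the libraries are scaled. Relative to Hdac3, Tbl1x was at 0.355 in control and 0.504 in cKO, again with ranges apart. Their sum was 21.3 FPKM in control and 27.2 in cKO. Relative to Hdac3, that sum had overlapping ranges of 0.534 to 0.712 and 0.685 to 0.801.

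Because Tbl1x and Tbl1xr1 are paralogs, reads could in principle be shared between them. Their longest coding sequences in GENCODE (release M21, GRCm38 build) hold 1581 and 1542 bases and are identical at 77.1% of aligned positions. The longest run of identical bases is 20, and it is printed in capitals with 40 bases on each side, at positions 1119 to 1218 of the Tbl1x coding sequence and 1080 to 1179 of that of Tbl1xr1, because it is the longest stretch that the aligned sequences share exactly.
Tbl1x: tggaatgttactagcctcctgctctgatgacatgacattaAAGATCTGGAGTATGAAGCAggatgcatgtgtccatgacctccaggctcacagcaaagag
Tbl1xr1: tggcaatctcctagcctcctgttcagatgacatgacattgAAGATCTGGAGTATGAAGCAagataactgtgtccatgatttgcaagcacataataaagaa
In these 100 bases the paralogs differ at 21 positions. Of all 50-base windows of the Tbl1x, Tbl1xr1 and Hdac3 coding sequences, 0 occur in a GENCODE transcript of another gene on either strand. Windows shared with other genes made up 1.26% for Ncor1 (with Gm6743) and 4.83% for Gps2 (with Gm5221).

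Tbl1x is the only member on a sex chromosome, and the libraries differ in their Y-linked RNA. Ddx3y was at 7.72 FPKM in control against 4.59 in cKO, and all 4 Y-linked markers (Ddx3y, Uty, Kdm5d, Eif2s3y) were lower in cKO with separate intervals. Xist, which is expressed from the inactive X chromosome of females, was at 21.9 and 23.7 FPKM. The median log2 difference of 472 tested X-linked genes was 0.06, against 0.12 for all tested genes. The part of the sexes in the Tbl1x difference was not tested.

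Gps2 (chromosome 11, 69727694 to 69730093) was at 20.5 FPKM in control, above its interval of 15.9 to 19.8, and 22.4 FPKM in cKO, above its interval of 18.0 to 20.3. The intervals overlapped, and the log2 difference of 0.13 sat next to the median of all tested genes. It was -0.19 with equal sums of FPKM and above 0 under the other scalings. Relative to Hdac3, Gps2 was at 0.562 in control and 0.589 in cKO. Gps2 lies 120 bases from the far more abundant Eif5a (205 and 202 FPKM) and 367 bases from Neurl4 (10.7 and 8.30 FPKM) without overlapping either.

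The order of levels was Hdac3, Ncor1, Gps2, Tbl1x and Tbl1xr1 in control, and the deposited intervals of all neighbours in that order were apart. Gps2 itself, at 20.5 FPKM, lay above its control interval of 15.9 to 19.8 and nearer to Ncor1. In cKO the order by FPKM was Hdac3, Gps2, Ncor1, Tbl1x and Tbl1xr1. There the interval of Gps2 (18.0 to 20.3) lay below that of Ncor1 (21.0 to 22.0), opposite to their FPKM, so their order in cKO is not settled. Hdac3 made up 36.0% of the summed FPKM of the members in control and 34.9% in cKO, Tbl1x 12.8% and 17.6%, and Tbl1xr1 8.34% and 7.37%. All members were moderately abundant: between 45.1% (Tbl1xr1) and 85.5% (Hdac3) of tested genes had a lower FPKM in cKO.

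**Figure D2:**
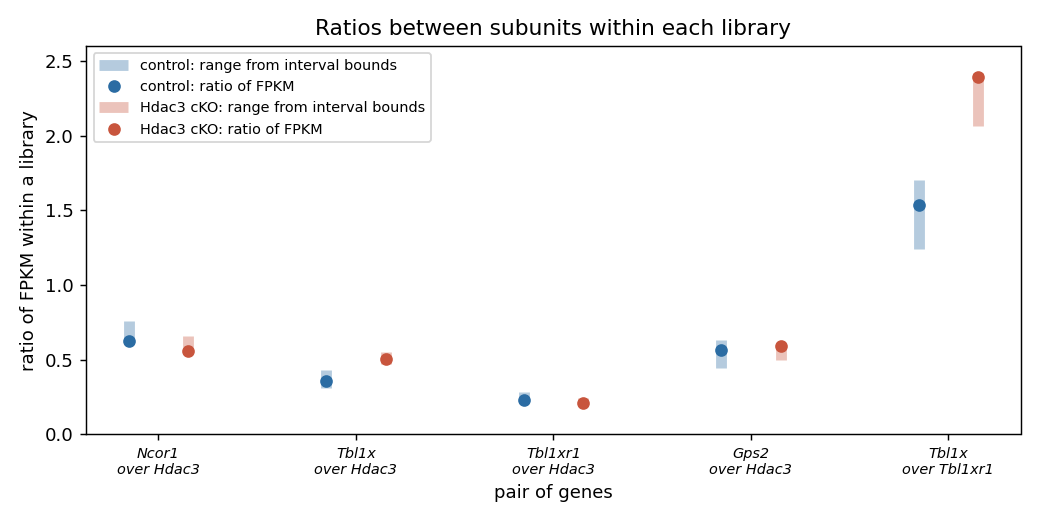
Ratio of FPKM between 2 genes of the same library (vertical axis) for 5 gene pairs, control in blue and Hdac3 cKO in red. Points are ratios of deposited FPKM and bars the range that the interval bounds allow. In cKO, the points of Ncor1 and Tbl1xr1 over Hdac3 lie below their own bars. Tbl1x over Tbl1xr1 is 1.53 in control and 2.39 in cKO, and the ratios of Ncor1, Tbl1xr1 and Gps2 to Hdac3 have overlapping bars.

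**Figure D3:**
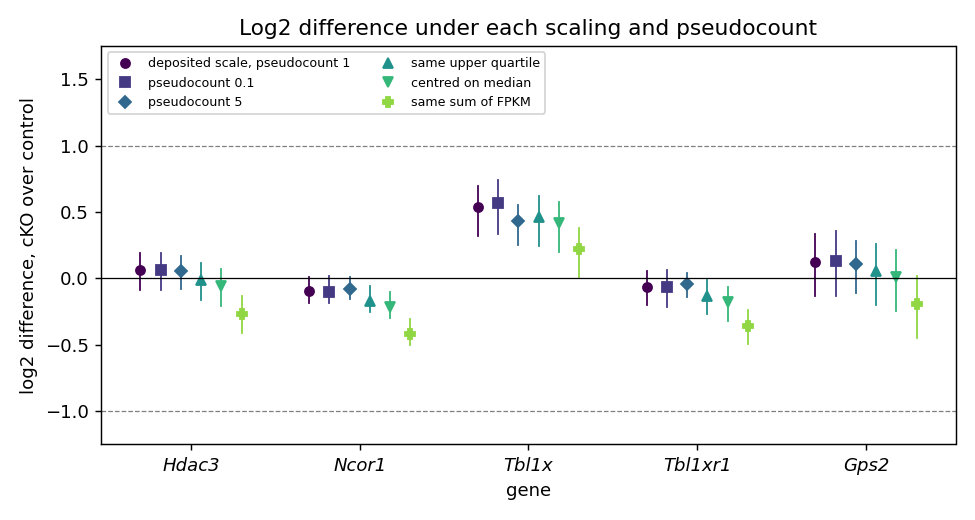
Log2 difference, cKO over control (vertical axis), of the members under 6 pseudocounts and scalings; lines span the differences that the interval bounds allow and dashed lines mark 2-fold. Tbl1x stays above 0 (0.22 to 0.57) and Ncor1 below 0 (-0.42 to -0.08), while Hdac3 and Gps2 cross 0 with the scaling. Each scaling lowers cKO values, so Ncor1 could not rise above 0.

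**Figure D4:**
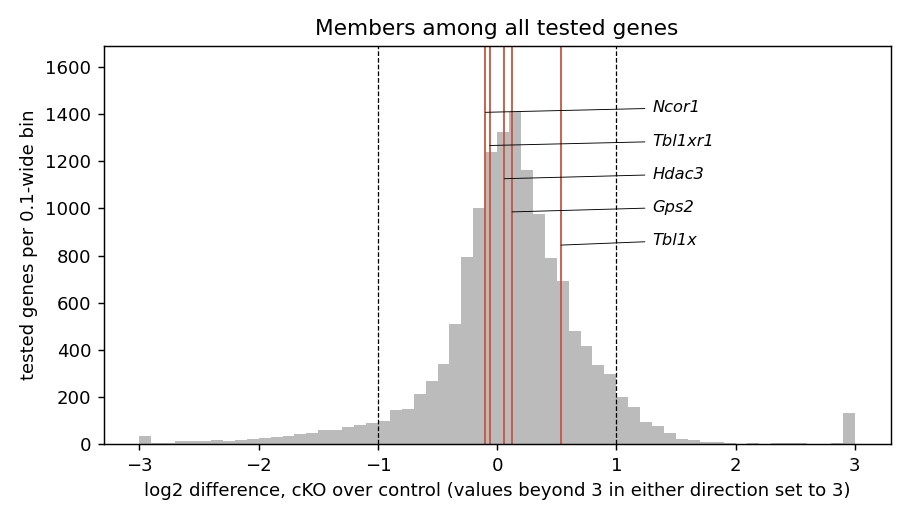
Number of tested genes (vertical axis) per 0.1-wide bin of log2 difference, cKO over control (horizontal axis), with the members as red lines and 2-fold as dashed lines; values beyond 3 are drawn at 3. Ncor1, Tbl1xr1, Hdac3 and Gps2 stand in the centre, from -0.10 to 0.13, and Tbl1x stands at 0.54.

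Likeness of pattern was measured as the distance in log2(FPKM + 1) over the 2 libraries. The tested genes nearest to Hdac3 were Txnl4a, Tsnax and Fam134a (distances 0.013, 0.020 and 0.026), those near Ncor1 included Atp6v1c1 and Cdc42bpb, and those nearest to Tbl1x were Pxk, Cnrip1 and Phkb. Dclre1c, Slc35e4 and Rabggta were nearest to Tbl1xr1, and Usp8, Sf3a3 and Hmg20b to Gps2. With only 2 libraries many genes share a pattern: 42 lay within 0.1 of Hdac3 and 104 within 0.1 of Tbl1xr1.

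Among other proteins found with the complex, Trim28, a corepressor of zinc finger factors, was at 49.2 FPKM in the control library and 44.5 in the cKO library. Kdm4a, a histone demethylase, was at 19.3 and 14.8 FPKM. The 3 tested genes of this list (Trim28, Kdm4a and Zbtb33) had log2 differences below 0. The intervals of Trim28 and Kdm4a were apart, and those of Zbtb33 overlapped. No pseudocount or scaling used here could turn these signs, because each scaling lowered cKO values. The median of the 3 genes was -0.14 on the deposited scale, and 0 were called, against 9.23% of all tested genes. Coro2a did not reach 1 FPKM.

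The other histone deacetylases showed 1 called gene of 10, against 9.23% of all tested genes. Hdac11, the class IV enzyme, was at 21.9 FPKM in control (interval 19.3 to 22.4) and 6.77 FPKM in cKO (interval 5.95 to 6.91), a log2 difference of -1.56 that was called under every pseudocount and scaling. Hdac1 and Hdac2, the catalytic subunits of the Sin3, NuRD and CoREST complexes, were at 47.5 and 50.6 FPKM and at 36.1 and 28.3 FPKM. Hdac8 was at 7.10 and 12.6 FPKM (log2 0.75). Hdac3 held nearly the same share of the summed class I FPKM, 28.6% in control and 29.4% in cKO, while the share of Hdac2 was 28.4% and 21.8% and that of Hdac8 was 5.58% and 9.73%. The list median of 0.06 was below 0 after centring on the median (-0.06) and with equal sums (-0.24).

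Of 26 tested factors that recruit the complex to DNA, 1 was called, and 16 were higher and 3 lower with separate intervals. Over all tested genes, 9.23% were called, and 38.4% were higher and 22.5% lower with separate intervals. Bcl6, a zinc finger repressor that recruits corepressors, was called higher at 3.83 (control) and 9.70 (cKO) FPKM (log2 1.15). Thra, the main thyroid hormone receptor of the brain, was the most abundant, at 129 FPKM in control against 69.3 in cKO (log2 -0.88, intervals apart). All 6 retinoid receptors, grouped after their values were seen, had log2 differences above 0, 5 of them with separate intervals. However, 1 was below 0 after centring on the median and 2 were with equal sums of FPKM. Rarb was at 5.86 and 11.9 FPKM (log2 0.91), and Rara (3.99 and 7.33), Rarg (8.23 and 16.1) and Rxra (6.01 and 12.2), named after their values were seen, also had separate intervals and stayed above 0 under every scaling. Nr2f1, an orphan nuclear receptor, was at 21.3 and 38.8 FPKM. The list median was 0.29 against 0.12 for all tested genes, and 0.03 with equal sums of FPKM, where all genes had a median of -0.17.

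Genes that activate or assemble HDAC3 had a median log2 difference of -0.27, with 1 of 19 called and 12 lower and 2 higher with separate intervals. Among all tested genes, 9.23% were called, and 22.5% were lower and 38.4% higher with separate intervals. Of the 12 lower genes, 8 were subunits of the TRiC chaperonin, and the other 11 tested genes had a median of -0.02, with 4 lower and 2 higher. Inositol phosphates bind between HDAC3 and its scaffold. Ippk, the kinase that makes inositol hexakisphosphate, was called lower at 10.6 FPKM in the control library and 4.43 in the cKO library (log2 -1.10), while Itpkb, an inositol trisphosphate kinase, was at 26.1 and 49.9 FPKM (log2 0.91). The TRiC chaperonin folds HDAC3. All 8 measured TRiC subunits were lower in cKO with separate intervals, in the main setting and under every scaling, by less than 2-fold. Every scaling used here lowered cKO values, so none could have brought the intervals of these lower genes together. The TRiC subunits were set apart from the list after their values were seen. Cct5 was at 109 (control) and 90.4 (cKO) FPKM, and Cct2 at 93.5 and 75.1, and log2 differences ran from -0.61 to -0.20.

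Subunits of the Sin3, NuRD and CoREST complexes, which carry Hdac1 or Hdac2, had a median of 0.11. In this list 1 of 24 was called, against 9.23% of all tested genes. Rcor2, a CoREST scaffold, was called lower at 5.86 FPKM in control against 2.26 in cKO (log2 -1.08). Rbbp7, a histone-binding WD40 protein, was at 50.7 and 82.2 FPKM (log2 0.69, intervals apart), and Sin3b was at 54.4 and 65.5 FPKM. Coactivators had 0 of 11 called, against the same 9.23%, and a median of 0.05. Kat5 (17.1 and 18.7 FPKM) and Kat2b (15.1 and 14.5), both acetyltransferases, had overlapping intervals, and so did Ep300, the gene for p300, at 8.92 and 9.48 FPKM. Carm1, an arginine methyltransferase, was at 9.52 and 13.3 FPKM, and Ncoa1, a nuclear receptor coactivator, at 8.05 and 10.9. The ratio of Ep300 to Hdac3 was 0.245 in control and 0.249 in cKO.

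Genes repressed by NCoR and HDAC3 through the Rev-erb or thyroid hormone receptors, with clock genes beside them, had 2 called higher and 1 called lower of 13. Of all tested genes, 4.73% were called higher and 4.51% lower. Thrsp, a lipogenic gene that thyroid hormone induces, was at 60.0 FPKM in the control library and 134 in the cKO library (log2 1.15), and Hlf, a clock output factor, at 10.5 and 23.9 FPKM (log2 1.11). Hr, a corepressor gene that thyroid hormone induces, was lower, at 19.0 and 8.23 FPKM (log2 -1.12). Tef, another clock output factor, was at 28.0 and 40.1 FPKM. Npas2 and Arntl, clock activators that Rev-erb represses and that were named after their values were seen, were at 1.02 and 3.04 FPKM and at 4.78 and 7.51 FPKM, both with separate intervals and neither called. Npas2, at 2.98 times its control FPKM, missed the call only through the pseudocount of 1, with a log2 difference of 0.999. Other genes of the list differed in direction. Per1 (12.9 and 20.9 FPKM), Per2 (2.92 and 5.76), Dbp (14.4 and 18.4) and Klf9 (25.0 and 40.8) were higher with separate intervals. Clock was at 7.11 and 7.09 FPKM, Cry1 was at 5.89 and 6.87 with overlapping intervals, and Nfil3 was lower, at 11.5 and 7.08, with separate intervals. Of the 13 tested genes, 9 were higher and 2 lower with separate intervals, against 38.4% and 22.5% of all tested genes. The list median was 0.56, and 0.27 with equal sums of FPKM, where the calls of Thrsp and Hlf were lost.

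**Figure D5:**
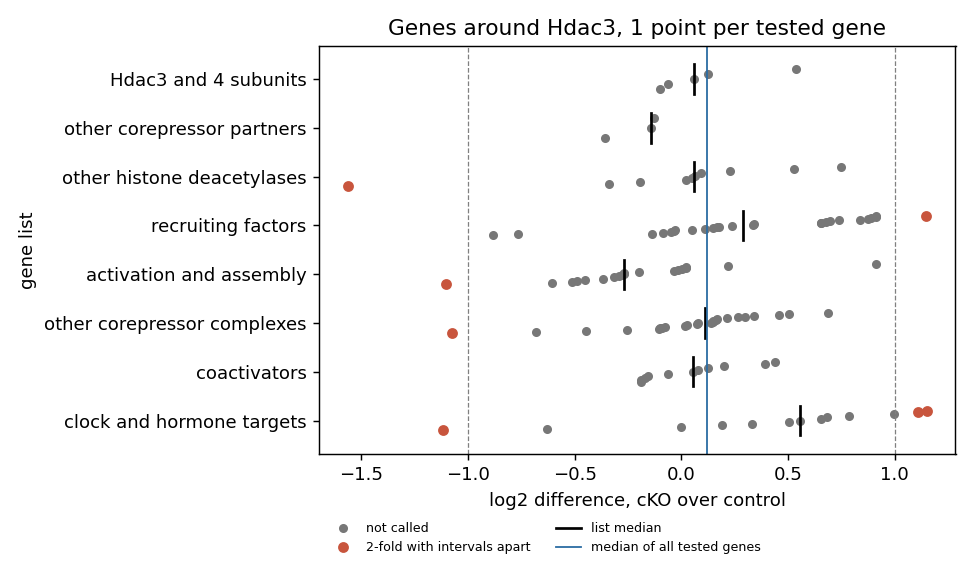
Log2 difference, cKO over control (horizontal axis), of each tested gene in 8 lists (rows); red points are called, black ticks are list medians, the blue line is the median of all tested genes (0.12) and dashed lines mark 2-fold. Called genes are Hdac11, Bcl6, Ippk, Rcor2, Hr, Hlf and Thrsp, and 0 of the 5 members.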

How the data were processed

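The authors deposited 1 table per library with gene-level FPKM, the bounds of an interval for each FPKM and a status, per the file headers. CASAVA, TopHat, Cufflinks and the mm9 build are named in the submitters' processing notes; their versions, the annotation and the depth count as not given in the sources used here. Both tables hold 24460 entries, joined on symbol, start site group and locus, and a symbol with several entries was represented by that with the highest summed FPKM. FPKM was used as deposited, with a pseudocount of 1, a minimum of 1 FPKM in at least 1 library, and calls at 2-fold with intervals apart. With 1 library per group no test was run. The calling code was tested on simulated data with 4-fold changes. The simulated intervals always held their own FPKM, which many deposited intervals do not, so that test does not cover such genes. Python 3.11.15 and pandas 2.3.3 were used, and coding sequences came from GENCODE transcripts.

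The members and the 7 related lists were chosen with earlier results of these data known. A few genes of these lists are not reported here, and counts, sums and medians of the lists leave them out. The text names, per list, the 2 members with the highest mean FPKM, the 2 with the largest difference and all called ones. Ep300, Rara, Rarg, Rxra, Npas2, Arntl, Clock, Cry1, Nfil3, Per1, Per2, Dbp, Klf9 and single cell markers were added after their values were seen. The TRiC and retinoid receptor groups were also formed after their values were seen. The alternatives were other pseudocounts, scalings, minima, entry choices and call rules, and, added after seeing the data, intervals recentred on their FPKM.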

Additional observations from a re-analysis of the deposited data

How the results depend on the processing

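The members had 0 calls in either direction in all 11 other settings. The other minima, summed entries, 2-fold alone and recentred intervals leave the members' differences unchanged. Those settings could therefore not have given a member a 2-fold call. With a pseudocount of 5, calls over all genes were 339 lower and 282 higher (638 and 669 in the main setting), recruiting factors had 0 higher, activation and assembly genes 0 lower, subunits of other corepressor complexes 0 lower, and clock and hormone targets 0 lower and 1 higher. With a pseudocount of 0.1, 1156 genes and 5 recruiting factors were higher. After centring on the median, 439 genes were higher, 1 recruiting factor was lower and 1 clock or hormone target higher. With equal sums of FPKM, 963 genes were lower and 215 higher, 2 recruiting factors were lower and 0 higher, and 0 clock or hormone targets were higher. At 1.5-fold, 1253 genes were lower and 2262 higher; lower and higher were 2 and 11 for recruiting factors, 2 and 1 for activation and assembly, 2 and 1 for other corepressor complexes and 2 and 6 for clock and hormone targets, with 1 deacetylase (Hdac8) higher. Which scaling is nearer to the tissue was not tested. Hdac11 kept its call in all 11 settings; Bcl6 lost it in 2 and Hlf in 3, and Ippk, Rcor2, Hr and Thrsp in 1 each. No paired analysis was possible because each group has 1 library, and for the same reason no library could be left out. Depth is not given, so precision rests on the deposited intervals.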
